A study of Arabidopsis thaliana with 12 samples.

Results

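Transcripts of 5 plastid ribosomal proteins were measured on arrays in Arabidopsis thaliana of the widely used laboratory accession Columbia-0, wild type in all samples. The members are the genes RPL17 (AT3G54210), RPL29 (AT5G65220), RPL34 (AT1G29070), RPS10 (AT3G13120) and RPL5 (AT4G01310), each taken from the 1 probe whose platform annotation lists that gene and no other. They are 5 of the 691 genes that have such a probe. The 6 samples called dark came from plants adapted to darkness overnight, and the 6 samples called light came from plants that were given 1 h of light after that night. The plants of both groups had been through the night, and the labels name no organ or plant age. None of the 9 marker genes of photosynthetic tissue and 5 of root that were listed was on a probe of its own. The tissue could therefore not be checked with them, and other genes were not used for such a check. Light and time elapsed since the night cannot be told apart in this design.

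The plastid has its own ribosomes, which resemble those of bacteria and translate the proteins encoded in the plastid genome, among them core subunits of the photosystems. Most of their proteins are encoded in the nucleus, made in the cytosol and imported. In bacterial ribosomes, the counterparts of RPL17 and RPL29 lie in the large subunit near the exit of the tunnel through which the new chain leaves, that of RPL5 binds the 5S ribosomal RNA, and that of RPS10 lies in the head of the small subunit.

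Each array gave a relative intensity for 3439 probes on a scale that ends at 100, with 11.7 to 15.7% of its values at exactly 0. Arrays were quantile normalised, and levels below are these normalised intensities. Signals of different probes may not share 1 scale, so levels are compared between groups for 1 probe and never between genes. Changes are light minus dark on the log2 scale, from limma on 12 arrays with Benjamini-Hochberg adjustment over 2966 probes. Columns of a group with consecutive replicate numbers (1 and 2, 3 and 4, 5 and 6) resembled each other more than other columns did, with a consensus correlation of 0.219 over the probes tested. If they are repeat measurements of 1 sample, the p-values are too small, and values with such columns averaged are given where they change a call. Since no label states that replicates came from different plants, the p-values measure only the spread between samples, which may be technical in origin.

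The 5 transcripts did not move together in the first hour of light. RPL17 rose 2.33-fold (95% interval 1.91 to 2.84), RPL29 fell with a log2 change of -0.48 (95% interval -0.71 to -0.25), and RPL34, RPS10 and RPL5 did not pass the test. So 1 member passed upward, 1 downward and 3 not at all, while of all probes tested 40.4% passed, 19.9% higher and 20.5% lower. At 2 of 5, the members passed about as often as probes in general. With consecutive replicate numbers averaged, 1 of 5 passed, RPL17, against 27.4% of all probes. In such bulk samples, less RNA of a transcript per cell and fewer cells that make it cannot be told apart. Their median change was -0.01, as was that of all 2966 probes.

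RPL17, a protein of the large subunit, had a lowest dark level of 0.272, a median of 0.363 and a highest of 0.412. After 1 h of light its lowest level was 0.690, its median 0.817 and its highest 0.912. Every light array was above every dark array. The mean went from 0.352 ± 0.061 to 0.813 ± 0.080 (SD, n = 6), a log2 change of 1.22 (SE 0.13, limma adjusted p = 1.6e-05). The light array was higher than the dark array of the same replicate number for 6 of 6 numbers, by 0.80 to 1.69 on the log2 scale. With consecutive numbers averaged, the log2 changes of the 3 averages were 1.18, 1.35 and 1.13, and the call held (limma, adjusted p = 0.0027), where 13.7% of all probes passed upward and 13.8% downward. The dark level varied mostly within the consecutive columns. Dark replicates 1 and 2 were at 0.406 and 0.294, 3 and 4 at 0.412 and 0.272, and 5 and 6 at 0.395 and 0.332, so that the 3 averages differed little (0.350, 0.342 and 0.363).

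RPL29, another large-subunit protein, moved the opposite way. Its dark level had a lowest value of 1.80, a median of 2.12 and a highest of 2.29. In light the lowest was 1.30, the median 1.46 and the highest 1.74. The groups did not overlap, but the highest light array, replicate 4, lay close below the lowest dark array, also replicate 4. The mean went from 2.07 ± 0.21 to 1.49 ± 0.16 (SD, n = 6), with an SE of 0.11 on the log2 change and a limma adjusted p of 0.0034. The light array was lower for 6 of 6 replicate numbers, by as little as a log2 difference of -0.05 for the closest and -0.70 for the widest. With consecutive numbers averaged the log2 changes were -0.61, -0.23 and -0.60 and the call was lost (limma, adjusted p = 0.062), as it was without replicates 5 and 6 of both groups (adjusted p = 0.056, where 14.7% of all probes passed downward). Over all probes tested, 26.6% had groups that did not overlap, 13.2% with light above dark and 13.4% with light below.

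**Figure D1:**
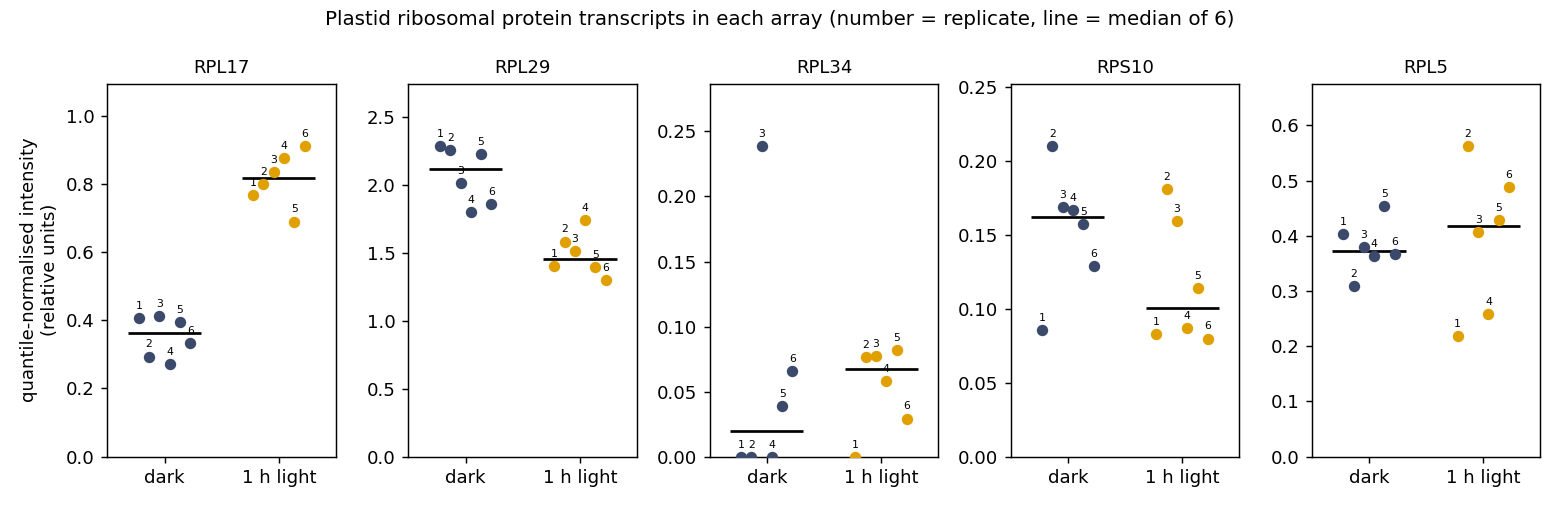
Quantile-normalised intensity (relative units, linear axis from 0) of each member in the 6 dark and 6 light arrays, with the replicate number beside each point and the group median as a line. RPL17 lies at 0.272 to 0.412 in the dark and 0.690 to 0.912 in light, RPL29 lies lower in light without overlap, and RPL34, RPS10 and RPL5 overlap between groups.

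RPL5, the 5S RNA-binding protein of the large subunit, had a dark median of 0.373, with a lowest level of 0.309 and a highest of 0.455. In light the lowest level was 0.218, the median 0.417 and the highest 0.563. The light arrays reached both below and above all dark arrays. The mean went from 0.379 ± 0.048 to 0.394 ± 0.133 (SD, n = 6), and the log2 change was -0.01 (95% interval -0.51 to 0.48, limma adjusted p = 0.97). The fitted rise of RPL17 lay outside this interval. The 2 light arrays at the extremes, replicates 1 and 2, carry consecutive numbers. The SD of the log2 level was 0.18 in the dark and 0.54 in light, against medians over all probes tested of 0.32 and 0.39.

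RPS10, the only small-subunit protein tested, had a lowest dark level of 0.086, a median of 0.162 and a highest of 0.210. In light the lowest level was 0.080, the median 0.101 and the highest 0.181. The groups overlapped over most of their range. The mean went from 0.153 ± 0.042 to 0.117 ± 0.043 (SD, n = 6), with a log2 change of -0.41 (SE 0.26, 95% interval -0.99 to 0.17, limma adjusted p = 0.25). Light was lower for 6 of 6 replicate numbers, by log2 differences between -0.05 and -0.94. Dark replicate 1 (0.086) and light replicate 1 (0.083) were both low in their groups, and dark replicate 2 (0.210) and light replicate 2 (0.181) were both the highest. The SE and interval above ignore this likeness of same-numbered arrays. With the replicate number as a block the SE was 0.15. RPS10 still did not pass (limma, adjusted p = 0.064), in a fit where 44.3% of all probes did.

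RPL34, a small protein of the large subunit, was too dim to be measured in every array. It was listed at 0 in 3 dark arrays (replicates 1, 2 and 4) and in 1 light array (replicate 1). The other dark levels were 0.239, 0.039 and 0.066 in replicates 3, 5 and 6. The other light levels ran from 0.029 to 0.082. Apart from dark replicate 3 no array exceeded 0.082. The log2 change was 0.81 (SE 0.99, 95% interval -1.34 to 2.97, limma adjusted p = 0.55), and it went to 0.07 when the lowest level was set at 0.034 in place of 0.0067, so that its size came from the arrays listed at 0. The listed values themselves averaged 0.057 in the dark and 0.054 in light, the opposite order, whereas their medians were 0.020 and 0.067. The log2 change was 1.48 without dark replicate 3, 1.34 without light replicate 1, and 0.45 without any 1 of dark replicates 1, 2 and 4, and it passed in none of these fits. Its level stood at the 4.0 percentile among probes tested, and the interval holds both 0 and a change as large as that of RPL17, so that such a change was not detectable at this signal.

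How far RPL29 and RPS10 moved depended on the scaling. When each array was instead left as deposited, centred on its median or centred on its 75th percentile, which multiplies all values of an array by 1 factor, the median log2 change of all probes tested was -0.21, -0.09 and 0.16. Relative to that median, RPL17 was at 1.03 under each of these 3 scalings, against 1.23 after quantile normalisation and 1.24 after cyclic loess. Apart from values raised to the lowest level allowed, the 3 must give the same value relative to the median, so they count as 1 result. RPL29 was at -0.81, -0.81 and -0.80 under the 3 scalings, against -0.47 and -0.39. RPS10 was at -0.06 under each of the 3, against -0.40 and -0.43. RPL5 stayed between -0.07 and 0.03 under the 5 scalings. RPL17 and RPL29 kept their direction and passed under all 5, where the share of all probes that passed was 43.9% as deposited, 45.6% with median centring, 44.7% with the 75th percentile and 41.2% with cyclic loess. Without this correction the log2 change of RPL29 was -1.01 as deposited and -0.90 with median centring. The cause of the difference between the 2 kinds of scaling was not tested.

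Ratios within an array do not depend on the factor by which that array was scaled, and they were therefore taken on the deposited values. Their size reflects the probes, so only the difference between groups is of use. For members above 0 in all arrays, the mean shift is the difference between their as-deposited log2 changes, so it is no separate evidence. RPL17 and RPL29 had already been called in opposite directions, so a large shift between them follows from these calls. The log2 ratio of RPL17 to RPL29 was -2.69 ± 0.28 in the dark and -0.85 ± 0.18 in light (SD, n = 6), a shift of 1.83. The dark ratios ran from -3.17 to -2.35 and the light ratios from -0.999 to -0.53. The log2 ratio of RPL17 to RPL5 went from -0.13 ± 0.21 to 0.96 ± 0.46 (SD, n = 6), with dark ratios up to 0.12 and light ratios from 0.47. These 2 were the ratios with groups that did not overlap, among 6 between members that were above 0 in all arrays. The 4 ratios with RPL34 rest on the 3 dark and 5 light arrays in which it was above 0, and they overlapped. Among 121771 ratios between single-gene probes that were above 0 in all arrays, 27.8% did not overlap, and 11.6% shifted at least as far as RPL17 over RPL29. The ratio of RPL29 to RPL5 shifted by -0.74 and its groups overlapped, with a lowest dark ratio of 2.30 and a highest light ratio of 2.47. The ratio of RPS10 to RPL5 shifted by 0.01.

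Ranks within an array need no scaling. Quantile normalisation sets each level from this rank, however, so the ranks restate the normalised levels and are no separate check. RPL17 stood at the 53.9 to 68.0 percentiles of brightness in the dark arrays and at the 82.4 to 87.4 percentiles in the light arrays. RPL29 stood at 94.0 to 95.1 in the dark and 91.7 to 93.8 in light, without overlap but over a narrow range. By normalised level, 26.6% of all probes tested had groups that did not overlap. RPS10 (25.6 to 45.6 against 24.6 to 40.9) and RPL5 (58.3 to 71.2 against 46.7 to 77.7) overlapped.

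**Figure D2:**
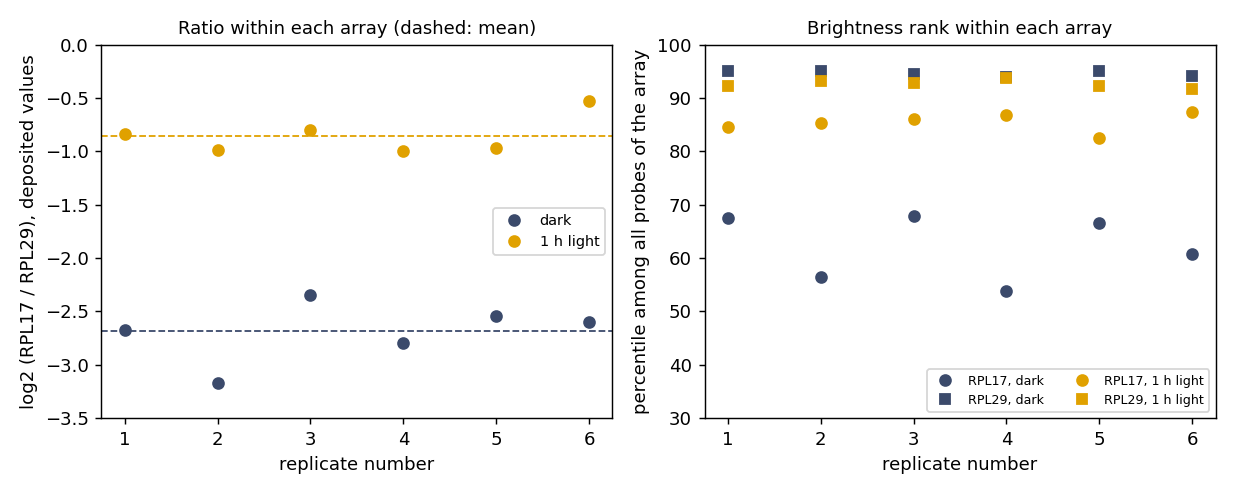
Left, log2 of the deposited RPL17 value over the deposited RPL29 value in each array, by replicate number, with group means dashed at -2.69 (dark) and -0.85 (light). Right, the percentile of RPL17 (circles) and RPL29 (squares) among all probes of the same array, where RPL17 lies at 53.9 to 68.0 in the dark and 82.4 to 87.4 in light and RPL29 at 91.7 or above in all arrays.

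Neither change stood at the edge of the array. Of the 2966 probes tested, 327 had a fitted rise at least as large as that of RPL17, itself included, and 821 had a fitted fall at least as large as that of RPL29. RPL29 was measured with more precision than most probes, its SE being at the 7.2 percentile of all SE, and RPL17 at the 18.4 percentile. In the fit on separate arrays, the SE of RPS10, RPL5 and RPL34 stood at the 59.0, 51.7 and 97.0 percentiles.

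**Figure D3:**
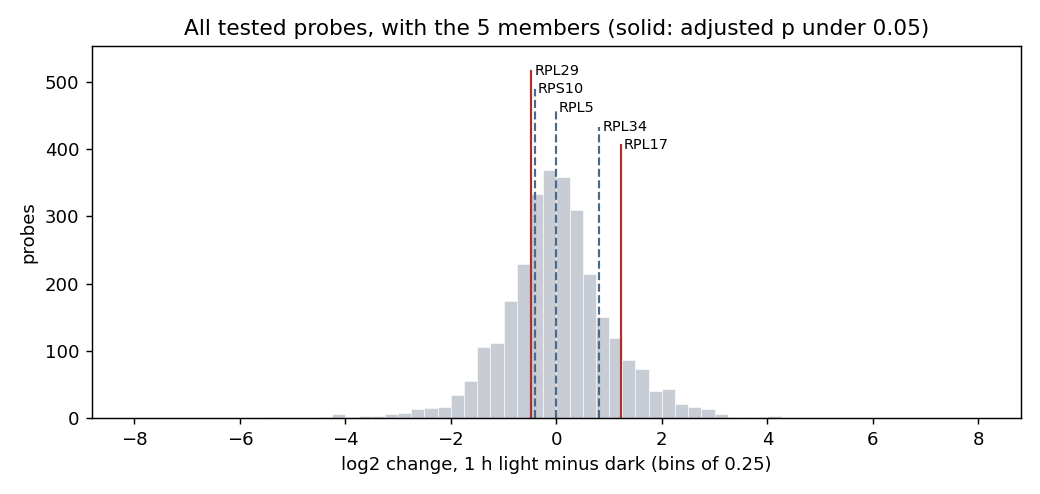
Number of probes (vertical axis) by log2 change, light minus dark, in bins of 0.25, for the 2966 probes tested, with the changes of the 5 members as lines, solid where the adjusted p was under 0.05. RPL17 at 1.22 lies on the upper shoulder, RPL29 at -0.48 and RPS10 at -0.41 on the lower side of the main peak, and RPL5 at -0.01 in its centre.

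The array says little about the rest of the plastid ribosome. Of 41 nuclear genes listed for plastid ribosomal proteins, 6 were on a probe of their own, namely the 5 members and RPS6 (AT1G64510), a small-subunit protein. RPS6 was listed at 0 in 7 of 12 arrays, never exceeded 0.062 as deposited, and was not tested. The other 35 genes, 10 plastid translation factors and 18 ribosomal proteins of the cytosol were on no single-gene probe and were not analysed here. No statement on the ribosome as a whole can rest on 5 of 41 genes.

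With the group means taken off, Pearson's r between 2 members over 12 arrays ran from -0.37 (RPL17 and RPS10) to 0.41 (RPL34 and RPL5), and it was 0.36 for RPL17 and RPL29. Within the 6 dark arrays the highest value was 0.69, for RPL17 and RPL5, which were at 0.04 in light. Within the 6 light arrays r was 0.64 (RPL34 and RPS10), 0.64 (RPL34 and RPL5) and 0.60 (RPS10 and RPL5), against 0.12, 0.30 and -0.48 in the dark. RPL34 was listed at 0 in 3 dark arrays and 1 light array, and these entered every r at the lowest level allowed. In light that array was replicate 1, where RPL5 was also at its lowest (0.218) and RPS10 was near its lowest (0.083 against 0.080). The r of RPL34 with RPL5 and with RPS10 in light therefore leans on 1 array, which was also low in both RPS10 and RPL5. These are descriptions of arrays that share their scaling and, in consecutive columns, possibly their sample.

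For each member, the 2 single-gene probes with the highest Pearson's r over the 12 arrays were taken from 593. Since the arrays form a dark and a light cluster, r with the group means taken off is given beside it. Whether the genes so picked changed, and in which direction, largely follows from the choice, and their p-values are no separate evidence. For RPL17 they were AT5G02710 (r = 0.97, group means off 0.56) and AT1G32730 (0.96, 0.36), both of which rose, with log2 changes of 0.68 and 2.27 (limma, adjusted p = 5.8e-05 and 2.6e-08). For RPL29 they were AT3G59980 (0.91, 0.64) and CML30 (AT2G15680), a calmodulin-like protein (0.90, 0.53). Both fell, with log2 changes of -0.40 and -0.89 (limma, adjusted p = 0.0044 and 2.5e-04). For RPL5 they were AT2G46050 (0.71, 0.71) and AT5G41960 (0.65, 0.66), neither of which passed. For RPS10 they were AT1G15140 (0.78, 0.74) and AT5G65360, a histone H3.1 gene (0.70, 0.62), and neither passed. For RPL34 they were AT1G17744 (0.76, 0.81) and AT4G20690 (0.75, 0.74), and again neither passed. The likeness for RPL17 and RPL29 fell when the group means were taken off, whereas that for RPL5 was as high. This contrast also largely follows from the choice, since RPL17 and RPL29 differed between groups and RPL5 hardly did.

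**Figure D4:**
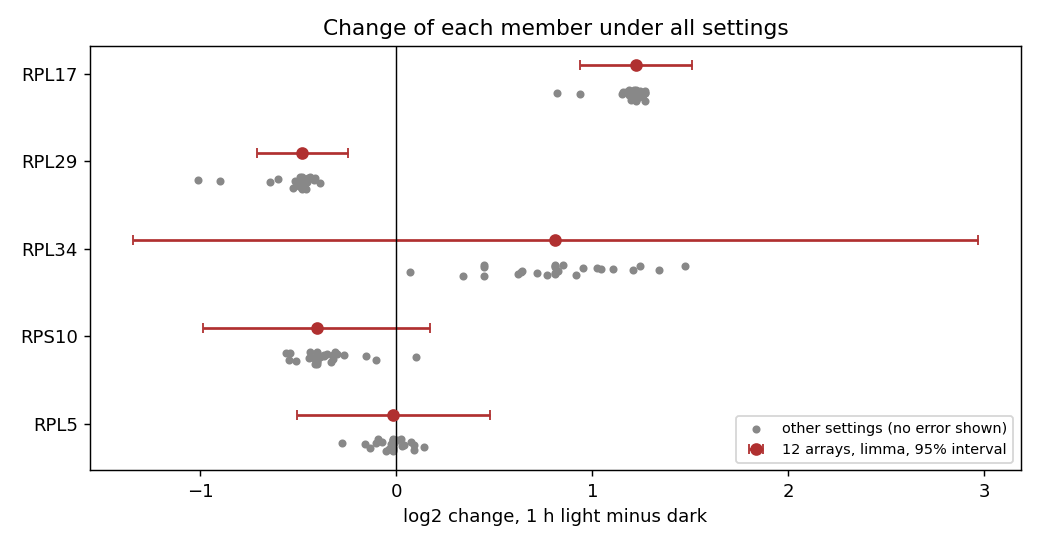
Log2 change, light minus dark, of each member with its 95% interval from limma on 12 arrays (red), and below it the value under each other setting tried (grey, without error). All values of RPL17 lie between 0.82 and 1.27 and all values of RPL29 between -1.01 and -0.39, whereas those of RPL5 lie on both sides of 0.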

How the data were processed

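The authors deposited a table of intensity values, 1 per probe and array, linear and running from 0 to 100. Scanning, background correction and scaling by the authors are not given in the sources used. Groups and replicate numbers came from the sample labels. Column sums ran from 2943 to 3683 and column medians differed by up to 1.42-fold, so arrays were quantile normalised in limma 3.58.1 (R 4.3.3). Values below the 1% quantile of positive values (0.0067) were raised to it before log2 was taken, and 473 probes that sat at this floor in over 6 arrays were dropped. Light and dark were compared by lmFit and eBayes, two-sided, with a threshold of 0.05 after Benjamini-Hochberg adjustment. The scripts were tested on simulated data. The number of arrays limits the precision.

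Genes came from the platform annotation, with gene IDs looked up in the TAIR10.1 gene table (690 of 691 found). The short protein names are those in general use. The array's genome build is not given, so no coordinates are printed, and no sequences were used here. The named genes are the 5 members, listed genes with a tested probe of their own, and the 2 most alike genes per member, and RPS6 was added after its values were seen. The members and lists were chosen with earlier results of these data known.

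The groups share replicate numbers. With group means removed, same-numbered dark and light arrays correlated at 0.301 to 0.557 (1483 probes), and 6 of 6 dark arrays matched their own number best. This pairing comes from the values, not from the labels. Alternatives covered the replicate block, averaged or random blocks of consecutive numbers, scalings, floors, filters, variance model, array weights and omission of arrays. Figures were drawn with matplotlib 3.10.9.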

Additional observations from a re-analysis of the deposited data

Results flagged for a closer look

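RPL34 in dark replicate 3 lay far from the other dark arrays, at a normalised intensity of 0.239 against a median of 0 in the other 5. Its gap to the next array was 0.723 of the range of the group, above Dixon's 95% critical value for 6 samples. It was 1 of 10 sets of 6 values in which a sample stood apart on this scale. Chance gives this in about 1 set in 20 where values are normally distributed, which linear intensities with values listed at 0 are not. On the log2 scale, with values listed at 0 raised to the floor, none of the 10 sets held such a sample. The check on normalised intensity was added after the values were seen.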

How the results depend on the processing

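With 28 alternatives, 814 to 1350 probes passed against 1198. RPL17 kept its direction and passed in 28 of 28. RPL29 kept its direction in 28 and lost its call in 2, with consecutive replicate numbers averaged (log2 change -0.48, adjusted p = 0.062) and without replicates 5 and 6 of both groups (-0.42, adjusted p = 0.056). The cause was not tested, though both use fewer values. RPS10 and RPL5 never passed. When the 75th percentile was used to centre arrays their log2 changes turned positive, at 0.10 and 0.093. This scaling raised the median of all probes to 0.16, and relative to it they were at -0.06 and -0.07. The other single-factor scalings give the same relative values by arithmetic, apart from values at the floor, and are no further check. RPL5, close to 0, also changed sign with cyclic loess (0.031), with array weights (0.026) and without replicates 3 and 4 of both groups (0.077). Leaving out single arrays moved RPL5 between -0.13 and 0.14, RPL17 between 1.15 and 1.27, RPL29 between -0.53 and -0.44, RPS10 between -0.56 and -0.30 and RPL34 between 0.45 and 1.48. RPL34 never passed, and could not be fitted with the floor at the 25% quantile or without probes at the floor in any array. With the replicate number as a block, 1314 probes passed, and RPL17 (adjusted p = 9.6e-04) and RPL29 (adjusted p = 0.015) kept their calls, so that the block changed no call of a member. The share of higher calls was 49.2%, against 32.5% as deposited, 39.2% with median centring and 58.9% with the 75th percentile.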
